A study of Sus scrofa with 8 samples.

Results

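Long-span circular RNAs (circRNAs) found in few livers were 1129 of the 6366 circRNAs listed for 4 pig livers. They were chosen by 2 measured values, a value above 0 in at most 2 of the 4 livers and a distance of at least 20000 bases between the start and end coordinates of the back-splice junction. Of these, 916 were above 0 in 1 liver and 213 in 2 livers. The 4569 circRNAs of a shorter span found in at most 2 livers and the 125 circRNAs of at least 20000 bases found in 3 or 4 livers were used for comparison. Since the choice rests on detection, the detection patterns below are a description. The same holds for the counts and levels per library and for the tests on them.

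A circRNA forms when the spliceosome joins the end of an exon to the start of the same or an earlier exon, which closes the RNA into a loop without a cap or a poly(A) tail. The loop has no free ends for exonucleases, so circRNAs can outlast the linear RNAs of their host genes, and they are known to accumulate with age in neural tissue. Libraries depleted of rRNA keep them, and they are counted from reads that cross the back-splice junction. The span is a distance on the genome and includes introns that may have been spliced out, so it is not the length of the circle. Exons, introns and host genes of these junctions were not analysed here.

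The livers were taken from sows of the Yanan breed, which is native to China, and the sows were not closely related. The young group was 2 sows aged 180 days and the old group was 2 sows aged 8 years, all 4 described as healthy. The young sows had never given birth, while the old sows had done so for many years and were past productive use. Age and reproductive history therefore cannot be told apart. The comparison asks which RNAs differ between the livers of the age groups. Each sow gave 1 rRNA-depleted RNA-seq library of whole liver. The young livers (YL) are young replicates 1 and 2 (YL1 and YL2) and the old livers (OL) are old replicates 1 and 2 (OL1 and OL2). In such bulk tissue, fewer cells of a type and less RNA per cell cannot be told apart.

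The libraries differed in how circRNAs were detected. The table listed 1348 and 834 circRNAs above 0 in YL1 and YL2, and 2712 and 4219 in OL1 and OL2. The junction reads behind them, recovered approximately from the step between values, were 23358 and 23614 in YL and 20503 and 38775 in OL. In contrast, the reads counted on mRNAs and lncRNAs were 51494798 and 52207649 in YL and 28324675 and 31630060 in OL. Young replicate 1 and young replicate 2 also had few circRNAs in common. Of the 670 circRNAs with at least 10 junction reads in young replicate 2, 225 (33.6%) were above 0 in young replicate 1, while 658 (79.8%) of the 825 with at least 10 reads in old replicate 2 were above 0 in old replicate 1. Hepatocyte markers were abundant in every library, with 10 of 10 listed genes found and sums of 52292, 59312, 36591 and 44943 CPM in young replicates 1 and 2 and old replicates 1 and 2. Macrophage markers (5 of 8 genes found) summed to 232 and 254 CPM in the young livers and 340 and 375 CPM in the old livers. Erythroid markers (3 of 6 found) summed to 622, 429, 306 and 405 CPM in the same order, and skeletal muscle markers (2 of 10 found) to at most 2.16 CPM, and no gene found was at 0 in any library. The part of these differences between libraries in the results below was not tested.

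Most long-span circRNAs found in few livers were above 0 in old livers only. These were 866 of 1129 (76.7%, 95% Wilson interval 74.2 to 79.1), against 179 (15.9%, 13.8 to 18.1) in young livers only and 84 (7.44%, 6.05 to 9.12) in 1 liver of each age. The shorter circRNAs found in few livers were divided in much the same way, with 3581 of 4569 (78.4%, 77.2 to 79.5) in old livers only and 666 (14.6%) in young livers only. For each circRNA in young livers only, the number in old livers only was 4.84 for the long-span circRNAs, 5.38 for the shorter ones and 5.26 over the whole table. The intervals cover counting error only, and they take circRNAs as independent units although these share libraries and loci.

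Most of those in old livers only came from old replicate 2. Of those 866, 558 were above 0 in old replicate 2 and at 0 in the other 3 livers, which is 49.4% of all 1129. Old replicate 1 alone held 181, young replicate 1 alone 121 and young replicate 2 alone 56. A further 127 were above 0 in both old livers and at 0 in both young livers, while 2 were above 0 in both young livers and at 0 in both old livers. Among the 1866 circRNAs of the table found in at least 2 livers, 44.7% were higher in both old livers than in both young livers and 6.75% were higher in both young livers. The 1866 include circRNAs found in more than 2 livers, so these shares are not like for like. Of the 84 found in 1 liver of each age, 46 joined young replicate 1 with old replicate 2, 21 young replicate 2 with old replicate 2, 12 young replicate 1 with old replicate 1, and 5 young replicate 2 with old replicate 1. Without old replicate 2, the same circRNAs counted 308 in old livers only, 246 in young livers only and 17 in both ages.

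**Figure D1:**
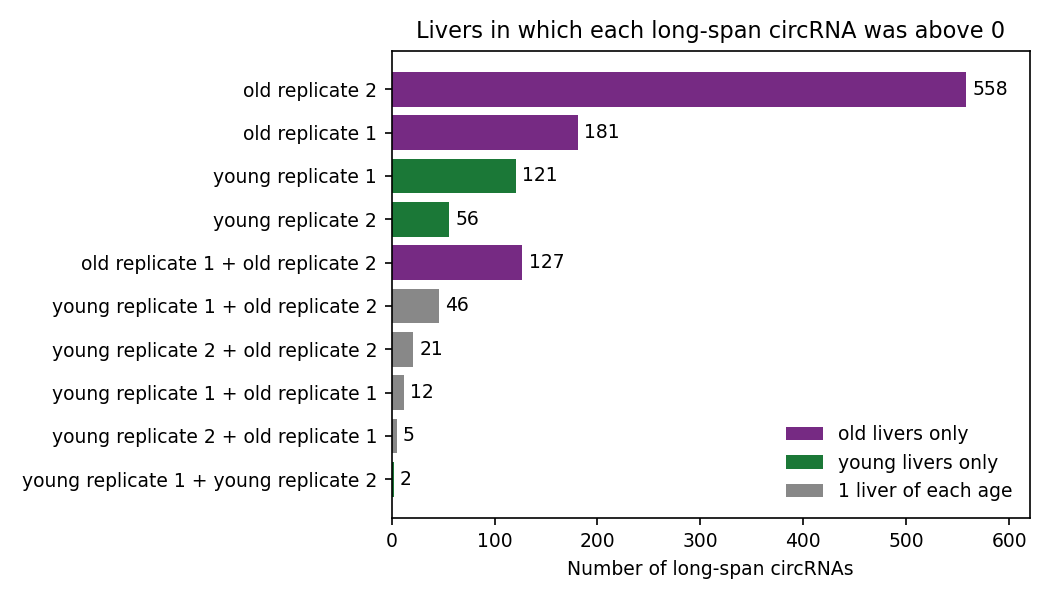
Number of long-span circRNAs (horizontal axis) by the liver or pair of livers in which they were above 0 (vertical axis), coloured by age. The bar of old replicate 2 alone, 558, is longer than any other, and the pair of young livers has 2.

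Per library, 181 long-span circRNAs were above 0 in YL1, 84 in YL2, 325 in OL1 and 752 in OL2. The counts of the age groups did not overlap, with a mean of 538.5 ± 302 (SD, n = 2) in the old livers and 132.5 ± 68.6 (SD, n = 2) in the young livers. The exact permutation test over the 4 libraries gave a two-sided p of 0.333, which is the smallest value that 2 livers against 2 allow. These counts use the detections on which the choice rests, so the test is a description. Per 1000 circRNAs above 0 in the same library, the numbers were 134 and 101 in YL and 120 and 178 in OL. On that scale the groups overlapped, with a difference of 31.5 (exact permutation test, two-sided, p = 0.667). Long-span circRNAs made up 22.2% and 18.5% of the circRNAs found in few livers and above 0 in young replicates 1 and 2, and 15.7% and 21.1% in old replicates 1 and 2, which overlapped as well (difference of -1.97 percentage points, exact permutation test, two-sided, p = 0.667). Over the table, the share of long-span circRNAs was 20.4% of those found in 1 liver, 17.8% of those in 2, 19.8% of those in 3 and 16.4% of those in 4.

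The levels ran opposite to the counts. A long-span circRNA above 0 had a median value of 1.51 in young replicate 1 and 3.52 in young replicate 2, but 0.429 in old replicate 1 and 0.449 in old replicate 2. The deposited values are junction reads scaled per library in a way the authors do not state. In approximate junction reads, the medians were 8 and 19 in YL and 3 and 3 in OL. The mean log2 value of those above 0 was 0.55 and 1.60 in YL and -1.03 and -0.79 in OL, a difference of -1.99 with no overlap between the ages (exact permutation test, two-sided, p = 0.333, the smallest possible). For shorter circRNAs found in few livers the same difference was -1.86.

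Many of the old-liver detections lay at the lower limit of the table, which the authors set at 2 junction reads. The long-span circRNAs with 2 reads were 10 (5.52%) in YL1, 1 (1.19%) in YL2, 129 (39.7%) in OL1 and 257 (34.2%) in OL2. At the other end, those with at least 10 reads were 69 (38.1%), 70 (83.3%), 17 (5.23%) and 90 (11.97%) in the same order. Thus young replicate 2 had the fewest long-span circRNAs and the largest share with many reads. Reads from PCR without molecular identifiers are not independent molecules. A value of 0 means fewer than 2 junction reads and does not show that a circRNA was absent. A circRNA at 2 or 3 reads in an old liver could not be told from one just under the limit in another liver at this depth.

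The excess in old livers depended on the level from which a circRNA counts as detected. The step per junction read was 0.189 and 0.185 in YL and 0.143 and 0.150 in OL. A value limit can therefore ask for more reads in an old liver than in a young one, as a limit of 1 does. When a value of 1 or more was required of the same 1129 circRNAs, a limit chosen after the data were seen, 350 still counted as detected, of which 140 were in old livers only, 188 in young livers only and 22 in both. The numbers per library were then 133 and 79 in YL and 43 and 149 in OL, and the difference turned to -10.0 (exact permutation test, two-sided, p = 1). When the choice of at most 2 livers was also made again at that level, 49 long-span circRNAs above 0 in 3 or 4 livers joined, and of the resulting 399, 147 were in old livers only, 209 in young livers only and 43 in both (difference -19.5).

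**Figure D2:**
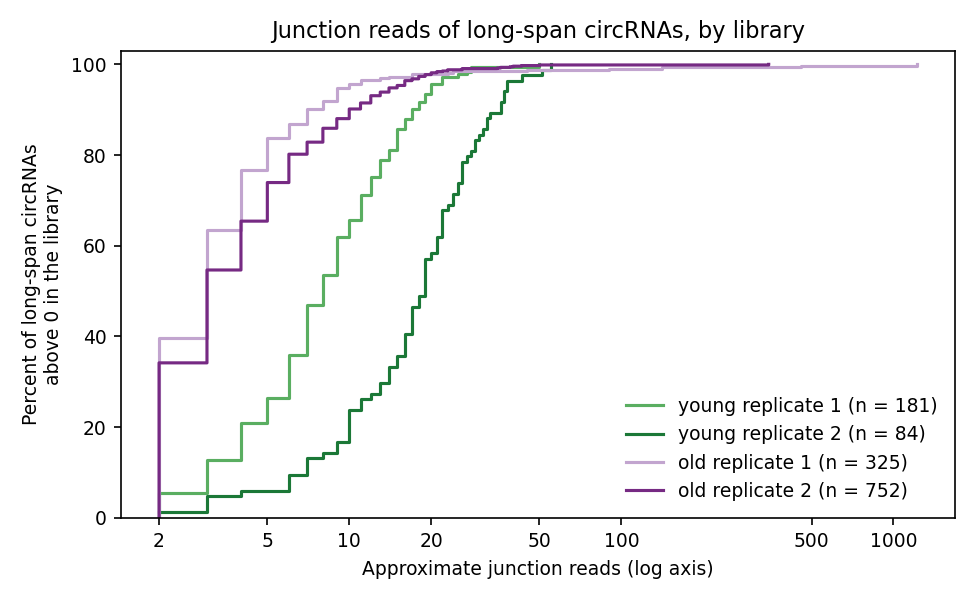
Cumulative percent of the long-span circRNAs above 0 in a library (vertical axis) by approximate junction reads (horizontal axis, log scale), 1 line per library. The lines of both old livers rise at 2 to 6 reads, with medians of 3, and those of young replicates 1 and 2 lie to the right, with medians of 8 and 19.

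The circRNAs detected in a single liver showed the same order. The medians were 7 reads for the 121 of young replicate 1, 17 for the 56 of young replicate 2, and 3 for both the 181 of old replicate 1 and the 558 of old replicate 2. With at least 10 reads there were 39 (32.2%) and 45 (80.4%) in YL1 and YL2, and 5 (2.76%) and 28 (5.02%) in OL1 and OL2. More of the well-covered long-span circRNAs of a young liver than not were thus private to 1 sow, 39 of 69 and 45 of 70, against 5 of 17 and 28 of 90 in the old livers. Of the 70 with at least 10 reads in young replicate 2, 2 were also above 0 in young replicate 1 and 19 in old replicate 2. Of the 90 with at least 10 reads in old replicate 2, 49 (54.4%) were also above 0 in old replicate 1. The choice of at most 2 livers limits such sharing, and none of these shares was tested.

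Where a long-span circRNA was above 0 in 1 liver of each age, its value was mostly higher in the young liver. This held for 76 of the 84, with a median log2 difference, old minus young, of -1.92, while 8 were higher in the old liver. It held for 12 of 12 in young replicate 1 and old replicate 1, 40 of 46 in young replicate 1 and old replicate 2, 5 of 5 in young replicate 2 and old replicate 1, and 19 of 21 in young replicate 2 and old replicate 2. After scaling the libraries to equal sums of circRNA values, 78 were higher in the young liver and 6 in the old liver. Long-span circRNAs found in 3 or 4 livers were also more often higher in the young liver, in 88 of 97, 65 of 99, 59 of 61 and 47 of 63 for the same pairs in that order. These circRNAs share libraries and are not replicates, so no test was made over them. Of the 127 found in both old livers, 94 were higher in old replicate 2 and 33 in old replicate 1.

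**Figure D3:**
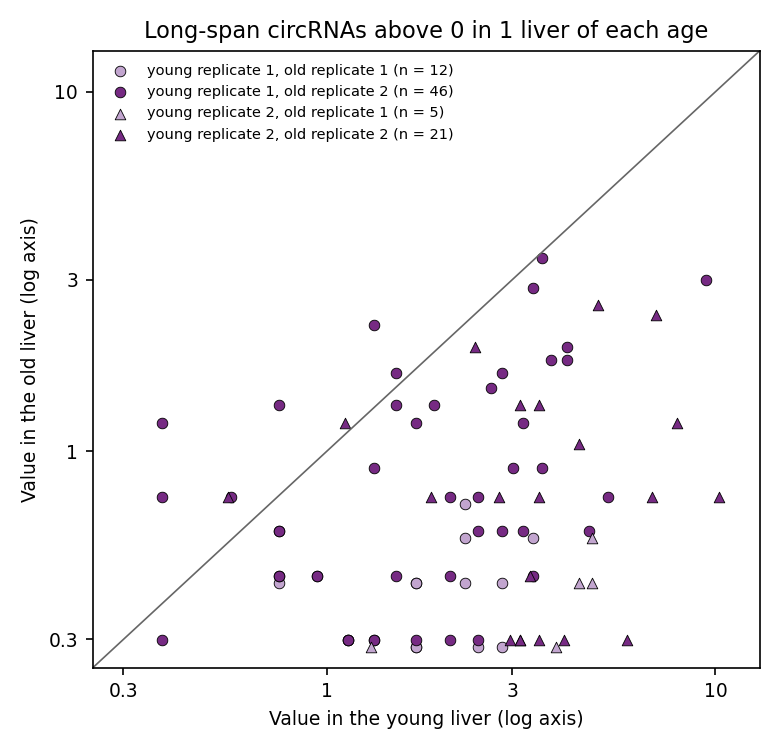
Deposited value in the old liver (vertical axis) against the young liver (horizontal axis), both on log scales, for the 84 long-span circRNAs above 0 in 1 liver of each age; circles and triangles mark the young replicate, light and dark fill the old replicate, the line marks equal values, and equal points overlap. Of the points, 76 lie under the line.

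Among the 127 circRNAs of the old pair, the highest values lay well above the limit of 2 reads. For circRNA017141 (Sscrofa10.2 chr8:33317025-33354941, plus strand) the value was 0 in both young livers, 12.9 in old replicate 1 (90 reads) and 52.1 in old replicate 2 (348 reads). Its neighbour circRNA017140, which ends at the same base and starts further left at 33316587, was found in old replicate 1 alone with 3.29 (23 reads). For circRNA011020 (chr13:52502786-52537175, plus strand) the old livers had 3.44 and 7.48. The values of circRNA010411 (chr10:50688301-50723087, plus strand) were 1.57 and 5.99. All of these were at 0 in both young livers, and old replicate 2 was the higher old liver in the 3 found in both. Also among the 5 highest of the pair were circRNA020422 and circRNA020421 of a chromosome 7 locus described further on, which were higher in old replicate 1.

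One member of this group, circRNA003190 (chr1:58484448-58517592, plus strand), is named in the study as part of its circRNA and miRNA network. It was at 0 in both young livers, 2.43 in old replicate 1 (17 reads) and 3.29 in old replicate 2 (22 reads). The 2 old values were close together. The overlapping circRNA003185 (chr1:58460994-58490977, plus strand) was the highest of those private to old replicate 2, with 6.44 (43 reads), and was at 0 in the other 3 livers.

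Both members found in the young pair were higher in young replicate 2. For circRNA004259 (chr1:227181486-227210811, minus strand) the young livers had 1.70 (9 reads) and 6.11 (33 reads). For circRNA016191 (chr12:23727464-23750252, plus strand) they had 1.13 (6 reads) and 3.89 (21 reads). Both were at 0 in the old livers.

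The highest values among circRNAs found in 1 liver of each age were in the young liver. For circRNA002703 (chr6:147045769-147067936, plus strand) young replicate 2 had 10.2 (55 reads) and old replicate 2 had 0.748 (5 reads). The values of circRNA000692 (chr5:105276875-105309621, minus strand) were 9.43 in young replicate 1 and 2.99 in old replicate 2. In circRNA018334 (chr18:36505708-36535413, plus strand) they were 7.97 in young replicate 2 and 1.20 in old replicate 2. The remaining pair had the same order, with circRNA013261 at 7.04 and 2.39 and circRNA006689 at 6.85 and 0.748 in young replicate 2 and old replicate 2.

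The highest circRNAs private to 1 young liver reached similar values. In young replicate 2 they were circRNA008241 (chr11:21725016-21748886) with 9.45, circRNA017689 (chr12:36516639-36546223) with 7.04 and circRNA002224 (chr6:73679330-73702387) with 6.85. In young replicate 1 they were circRNA005026 with 5.28, circRNA011692 with 5.09 and circRNA011814 with 4.15. They rested on 22 to 51 junction reads each, and the other 3 livers of each were at 0. In old replicate 2, circRNA002826 had 3.14 and circRNA005485 had 2.84, on 21 and 19 reads.

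**Figure D4:**
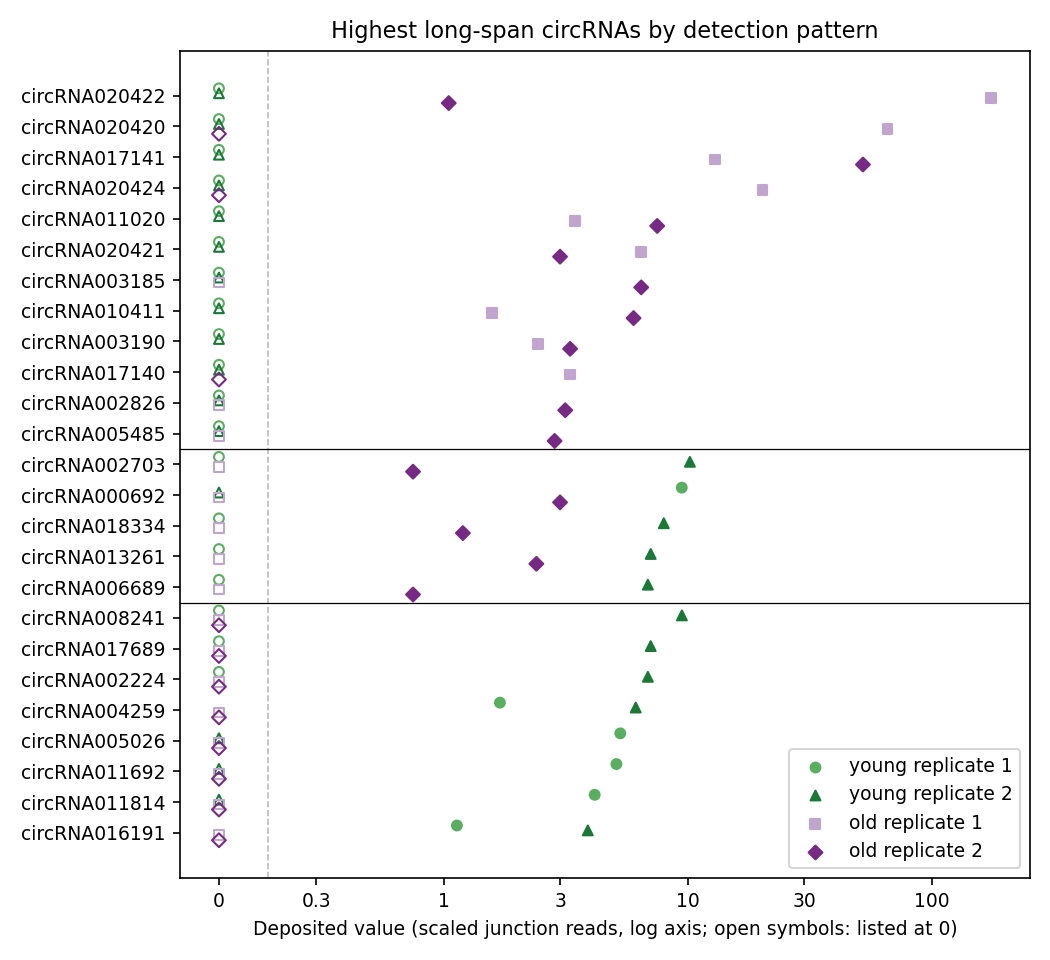
Deposited value (horizontal axis, log scale, with values of 0 as open symbols left of the dashed line) of the highest long-span circRNAs (vertical axis) in the 4 livers, grouped from top to bottom as found in old livers only, in 1 liver of each age and in young livers only. The chromosome 7 circRNAs circRNA020422 and circRNA020420 reach 174 and 65.7 in old replicate 1. The highest value is 9.43 in young replicate 1 and 10.2 in young replicate 2.

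A single locus on chromosome 7 dominated the summed level in old replicate 1. It was singled out after its values were seen. All 8 of its circRNAs (chr7:122933630-122963761, minus strand) were long-span circRNAs found in old livers only. The value of circRNA020422 was 174 in old replicate 1 (1219 reads) and 1.05 in old replicate 2 (7 reads). The value of circRNA020420 was 65.7 in old replicate 1 and that of circRNA020424 was 20.2, both at 0 in old replicate 2. For circRNA020421 the old livers had 6.44 and 2.99. The other 4 had at most 1.20. Their junctions had 7 start coordinates, some of them 1 base apart, and 2 end coordinates, 122963710 and 122963761. The locus summed to 267 in old replicate 1 and 5.54 in old replicate 2 and was at 0 in both young livers. It made up 59.0% of the summed value of long-span circRNAs in old replicate 1 and 9.11% of that library's summed circRNA value.

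In old replicate 1, the share of the circRNA level held by long-span circRNAs found in few livers rested mostly on that locus. The share was 7.36% and 6.99% in young replicates 1 and 2 and 15.4% and 10.7% in old replicates 1 and 2. The difference was 5.89 percentage points (exact permutation test, two-sided, p = 0.333, the smallest possible). Without the 8 circRNAs of the locus the shares were 7.36% and 6.99% in YL and 6.34% and 10.6% in OL. The groups then overlapped and the difference was 1.28 points (exact permutation test, two-sided, p = 1). With a span of at least 50000 bases it was -0.13 points. The shorter circRNAs found in few livers held 25.6% and 26.4% in YL and 32.5% and 37.8% in OL, a difference of 9.16 points. A higher share in old livers was thus not particular to the long-span circRNAs.

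The spans reached from 20018 to 596586 bases, with a median of 31968 and quartiles of 24438 and 49939. At least 50000 bases were spanned by 281 and at least 100000 by 79. The whole table has 82 circRNAs of at least 100000 bases, so that 3 were found in 3 or 4 livers. The median span was 32121 in those found in old livers only, 33456 in those in young livers only and 28441 in those in both ages. The share found in old livers only was 75.4% of the 488 from 20000 to 30000 bases, 78.1% of the 360 up to 50000, 78.2% of the 202 up to 100000 and 74.7% of the 79 above, with no steady order along the span. Per library the median spans were 31236 and 32631 bases in YL and 30085 and 32716.5 in OL (exact permutation test, two-sided, p = 1).

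The longest span belonged to circRNA005717 (chr4:131748401-132344987, plus strand), which had 0.299 (2 reads) in old replicate 2 and 0 elsewhere. Next was circRNA020990 (chr16:29811335-30149496, plus strand), also with 0.299 in old replicate 2 alone. The third, circRNA005726 (chr4:132111910-132405374, plus strand), overlaps circRNA005717 and had 6.67 (36 reads) in young replicate 2 and 0 elsewhere. Of the 5 longest it was the only one with more than 2 reads in any liver. The others were circRNA012106 (chrX:125758125-126027314) with 0.286 in old replicate 1, and circRNA003087 (chr1:38479515-38735658) with 0.286 and 0.299 in the old livers. Just inside the span limit were circRNA004221 (20018 bases; 0.429 and 0.299 in the old livers), circRNA002826 (20027 bases) and circRNA013420 (20031 bases; 0.898 in old replicate 2). Just outside were circRNA008506 (19993 bases; 1.35 in old replicate 2), circRNA010339 (19989 bases; 0.299 in old replicate 2) and circRNA010016 (19985 bases; 0.449 in old replicate 2). All 6 were at 0 in the young livers.

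Most long-span circRNAs shared a listed start or end with another circRNA. A start or an end coordinate on the same chromosome and strand was shared by 797 of 1129 (70.6%, 95% Wilson interval 67.9 to 73.2), against 2030 of 4569 (44.4%, 43.0 to 45.9) of the shorter circRNAs found in few livers and 121 of 125 (96.8%, 92.1 to 98.7) of the long-span circRNAs found in 3 or 4 livers. Another circRNA lay wholly inside 747 (66.2%), which a long span by itself makes more likely. An end or start of a circRNA found in 3 or 4 livers was used by 257 (22.8%). The groups compared were chosen by span and by detection, and no test was made.

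Some of the circRNAs found in old livers only had a start or end coordinate that was also listed for a circRNA found in a young liver. Of the 866, 316 (36.5%) shared a start or end with a circRNA found in a young liver and 435 (50.2%) overlapped one. Of the shorter circRNAs found in few livers and in old livers only, 741 of 3581 (20.7%) shared such a coordinate. Of the 179 found in young livers only, 116 (64.8%) shared a start or end with a circRNA found in an old liver and 143 (79.9%) overlapped one. The table lists more circRNAs in old livers, so these shares are not comparable between the ages. Linked by shared starts and ends, the long-span circRNAs fell into 773 loci. Of these, 195 held 2 or more and 19 held 5 or more, and 332 long-span circRNAs were linked to no other circRNA.

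The locus with the most lay on chromosome 10 (chr10:62692303-62890750, minus strand), with 24 circRNAs of which 18 were long-span circRNAs found in few livers. They combined 9 start and 8 end coordinates, and 14 were found in old livers only, 3 in young livers only and 1 in both ages. The end coordinate 62890750 belonged to 8 of them, found in every library, 3 in YL1, 1 in YL2, 3 in OL1 and 3 in OL2. The start coordinate 62692303 belonged to 4, all of them found in old replicate 2 alone. Some pairings recurred between livers. At the end coordinate 62890750, circRNA010574 was found in YL1 and OL1 and circRNA010575 in both old livers.

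Values in this locus were low. The highest of the 18, circRNA010559, had 2.54 in old replicate 2 alone. For circRNA010575, found in both old livers, OL1 had 1.29 and OL2 had 1.65. In young replicate 2 the locus was represented by circRNA010571 alone, with 1.85. The short circRNA010568 of the same locus, spanning 2376 bases, had 7.74 in YL1, 0 in YL2, 1.86 in OL1 and 8.53 in OL2. It shares its start with 3 of the long-span circRNAs, which had at most 1.85.

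**Figure D5:**
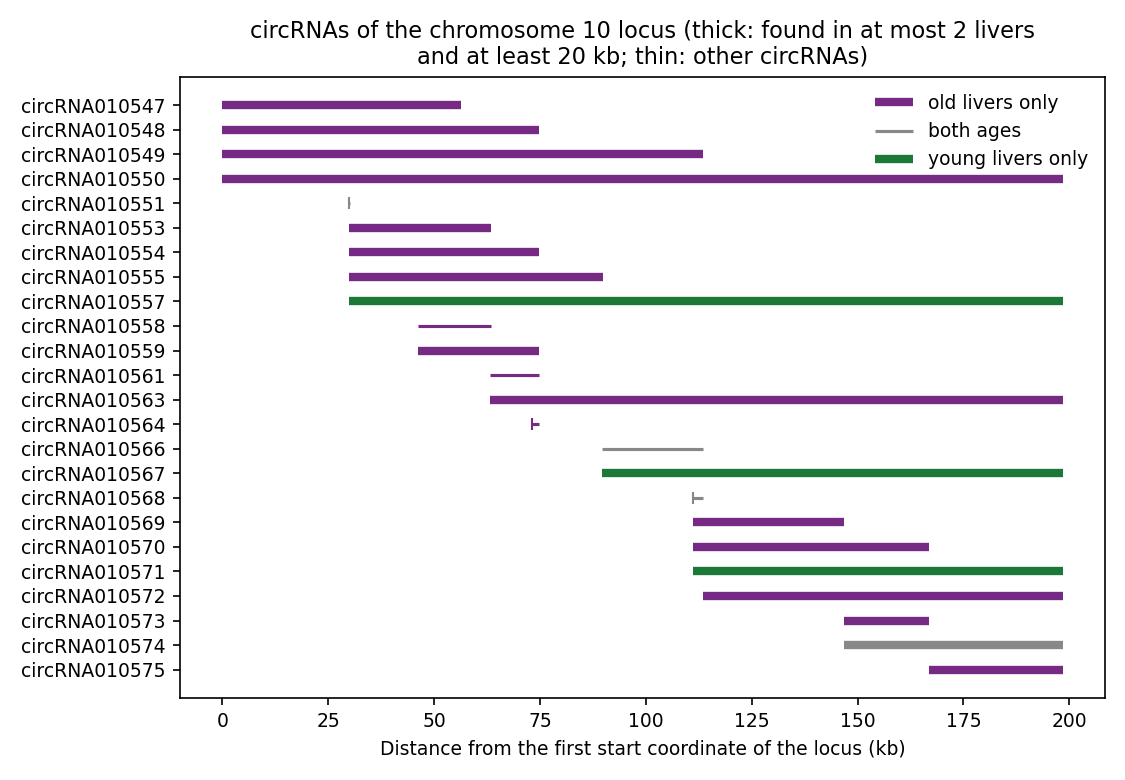
Extent of the 24 circRNAs of the chromosome 10 locus (vertical axis) by distance in kilobases from its first start coordinate (horizontal axis), coloured by the age of the livers in which they were above 0; thick lines are the 18 long-span circRNAs found in few livers and thin lines the others. The 8 thick lines that end at the right edge of the locus are 4 in purple, 3 in green and 1 in grey.

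In the loci next in number, a long-span circRNA detected in all livers or a short one often stood beside those found in few. On chromosome 5 (chr5:105210065-105332428, minus strand), 9 of 15 circRNAs were long-span and found in few livers, 5 in old livers only, 2 in young livers only and 2 in both ages. In the same locus circRNA000679, which spans 40355 bases, was found in all 4 livers with 5.28 and 6.48 in YL and 4.58 and 10.9 in OL. It shares its start with circRNA000680, found in old replicate 1 alone with 1.29, and with circRNA000682, found in young replicate 2 alone with 4.63.

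On chromosome 7 (chr7:91912201-91982115, minus strand), 10 of 30 circRNAs belonged to the group, 9 in old livers only and 1 in a young liver only. None of these 10 was above 1.05 in any liver, whereas circRNA001493, which ends at the same base as 4 of them, was found in all livers with 2.83, 15.6, 8.87 and 9.73 in young replicates 1 and 2 and old replicates 1 and 2. A further locus on chromosome 7 (chr7:96982323-97213027, plus strand) held 8 of 12, 5 in old livers only, 1 in young only and 2 in both ages. There circRNA001521 had 4.08 in young replicate 2 and 0.299 in old replicate 2, and circRNA001522 had 3.52 and 1.35. A second chromosome 5 locus (chr5:70515828-70647555, plus strand) held 8 of 17, of which 7 were in old livers only. The eighth, circRNA000457, had 3.52 in young replicate 2 and 0.299 in old replicate 2.

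The long-span circRNAs found in few livers were spread over all assembled chromosomes, with 1116 on 19 chromosomes and 13 on 11 unplaced scaffolds. They were evenly divided between strands, 566 on the plus and 563 on the minus strand. As a share of the circRNAs listed on a chromosome they were 17.7% over the table, and ranged from 13.3% on chromosome 16 (19 of 143) to 26.5% on chromosome 10 (73 of 275) and 31.8% on chromosome 18 (50 of 157). On each of the 19 chromosomes more were found in old livers only than in young livers only.

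Few of them overlapped a listed long non-coding RNA (lncRNA). An overlap was found for 72 (6.38%) with 50 of the 3992 lncRNAs that have a position, against 2.32% of the shorter circRNAs found in few livers and 7.2% of the long-span circRNAs found in 3 or 4 livers. A longer span covers more of the genome, and the strand of the lncRNAs is not given. In 54 of the 79 overlapping pairs the lncRNA lay inside the circRNA. Of the 72, 59 were found in old livers only, 10 in young livers only and 3 in both ages. Among the 47 overlapped lncRNAs that could be tested, limma on log2(CPM + 1) called 0 at an adjusted p under 0.05 and an absolute log2 fold change above 1, as did the quasi-likelihood test of edgeR. At an unadjusted p under 0.05 and the same fold limit, limma gave 0 higher and 3 lower. Over all 3228 lncRNAs tested, 3.72% were higher and 3.66% lower by that rule. By the same rule edgeR gave 8 higher and 2 lower, where over all of them 21.2% were higher and 1.61% lower. The lncRNA MSTRG.163785 had 29.6 and 31.8 CPM in YL and 12.3 and 10.6 CPM in OL, a log2 fold change of -1.36 ± 0.14 (SE) that did not pass (limma adjusted p = 0.196). Also without overlap between the ages, MSTRG.81889 had 8.67 and 7.59 CPM in YL and 3.09 and 3.52 CPM in OL, and MSTRG.164762 had 1.10 and 2.05 CPM against 0.162 and 0.097 CPM. In the other direction, MSTRG.171521 was at 0 in both young livers and had 0.845 and 0.78 CPM in OL, and MSTRG.1649 was at 0 in both young livers and had 1.27 and 0.599 CPM. With the pseudocount of 1, their fitted log2 fold changes were 0.858 and 0.929 (limma, unadjusted p = 0.00446 and 0.0267). They missed the fold limit, so the count of 0 higher in limma depends on the pseudocount.

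A test across circRNAs could be made for the 213 found in 2 livers. Such a circRNA passed the filter only through the livers where it was above 0, so one found in both livers of an age had to differ, and the calls are a description. With limma on log2(value + 0.286), 105 of the 127 found in both old livers were higher at an unadjusted p under 0.05 and a log2 fold change above 1, and both of those found in the young pair were lower. Of the 84 found in 1 liver of each age, 0 passed. Over all 1866 circRNAs tested, 672 (36.0%) were higher and 45 (2.41%) lower, against 105 and 2 of the 213. Both old livers were above both young livers in 834 of the 1866 and in 127 of the 213. After Benjamini-Hochberg adjustment 0 of the 1866 passed in either direction, with a smallest adjusted p of 0.0900 in limma. The smallest unadjusted values among the long-span circRNAs were those of circRNA020782 with a fitted log2 fold change of 3.42 ± 0.32 (SE) and circRNA003190 with 3.45 ± 0.33 (SE). Against young livers at 0 these fitted changes depend on the pseudocount and are not a measure of size. With a pseudocount of 1, 32 were higher. Without either old liver, the circRNAs of the old pair no longer passed the filter, so those fits could not test them.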

How the data were processed

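The 4 rRNA-depleted RNA-seq libraries, 1 per sow, were grouped by the age in their labels. The authors used TopHat2 2.0.14 with the Sscrofa10.2 genome, assembled transcripts with StringTie, and called circRNAs with CIRCexplorer2 from at least 2 junction reads. The deposited circRNA values are a signal scaled per library in a way not stated, near whole multiples of 1 step per library (all within 0.02 steps), and approximate reads are the value divided by that step. No count test was made on them. The deposited lncRNA and mRNA values behave as CPM, named TPM by the authors, and whole reads were recovered for 100% of values (tolerance 0.1). The strand setting of the counting is not given in the sources used here. Small RNA libraries were not used.

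Detection was a value above 0. Coordinates are as listed, and spans are end minus start. circRNAs on 1 chromosome and strand sharing a start or end formed a locus. Library values were compared by exact permutation tests. limma 3.58.1 was fitted over circRNAs above 0 in at least 2 libraries with a pseudocount of 0.286, the smallest value, and the unadjusted threshold the study used for circRNAs. edgeR 4.0.16 was run on lncRNA reads. Python 3.11.15 and R 4.3.3 were used. Named circRNAs were the 5 longest, the 5 highest per detection pattern in 2 livers, the 3 highest private to each library, those around the span limit, the 5 loci with most members and those named in the study. Other circRNAs of a named locus, the chromosome 7 locus of circRNA020422, circRNA020782 and the 5 lncRNAs were chosen after their values were seen. Groups, lists and members were chosen with earlier results of these data known. The 4 sows are separate animals, and the labels name no batch.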

Additional observations from a re-analysis of the deposited data

How the results depend on the processing

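Of 106 alternative values, 72 kept their direction (counts within 1.5 times), though not always their size, 30 were counts that moved further and 4 reversed. Requiring 0.377 or more, a value that each library could reach, gave 548 in old livers only with the circRNAs chosen again at that level and 547 with the same circRNAs kept. The smallest values, at 2 reads, were 0.377 and 0.370 in YL and 0.286 and 0.299 in OL. This limit therefore kept detections at 2 reads in young replicate 1 only. Requiring 1 or more, chosen after the data were seen, gave 147 in old livers only and 43 in both ages and a reversed difference in number of -19.5 with the circRNAs chosen again, and 140, 22 and -10.0 with the same circRNAs kept. A span of at least 50000 bases gave 217 in old livers only, 45 in young livers only and 19 in both ages, and reversed the difference in summed share to -0.13 percentage points, and a span of at least 10000 gave 1763, 368 and 178. With those found in 3 or 4 livers included, 209 were in both ages. Leaving out each library in turn gave 308 to 924 in old livers only, 58 to 246 in young livers only and 17 to 67 in both ages. The difference in number was then 192.5 to 619.5, in summed share 3.50 to 8.27 points, in mean log2 value -2.51 to -1.47, and in the percent with a long span -4.66 to 0.72 points, reversed at 0.72 without old replicate 1. The cause was not tested.

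The limma calls among the long-span circRNAs moved from 105 higher and 2 lower to 32 and 2 with a pseudocount of 1, 64 and 2 with no filter, and 0 and 0 with adjusted p-values. Leaving out each library gave 0 to 42 higher and 0 to 22 lower, where the lone sample of an age is assumed to vary like the other age. Replicate numbers are only shared labels (correlation of deviations -0.05), and a replicate block gave 33 higher and 2 lower. No lncRNA call appeared in any of its 6 alternatives (0 to 0). The planned fits on host mRNAs were not run, because the circRNA table names no host gene. With 2 livers per age, depth limits detection most for circRNAs of 2 or 3 reads, and no exact test could pass 0.05.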

Other observations

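Some junctions differed by a few bases only. Of the long-span circRNAs found in few livers, 8 had a start and an end within 10 bases of those of another circRNA, in 4 groups. On chromosome 7, circRNA001738 (chr7:123036318-123103275, minus strand) had 0.755 in young replicate 1 and 0.449 in old replicate 2, and circRNA001739, which starts 1 base further on, had 1.70 and 1.20 in the same livers. On chromosome 8, circRNA020454 (chr8:93287562-93308596, minus strand) had 1.86 and 3.44 in the old livers and 0 in the young livers. After such junctions were summed, 1123 long-span circRNAs found in few livers were left.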
